A study of Mus musculus with 12 samples.

Results

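Nascent RNA of mouse liver was compared between ZT12, the end of the light period, and ZT16, 4 hr into the dark (zeitgeber time, ZT, counts the hours from lights on). The members of the comparison were the gene symbols with more than 6 rpbp in at least 1 of the 4 libraries of these time points, which left 5211 of the 21490 symbols in the table (24.2%). The unit, reads per base pair (rpbp), is the number of reads over all exons of a gene divided by the exon length and brought to a common sequencing depth. At the edge of this limit, the highest of the 4 values was 6.1 rpbp for 57 symbols inside it and 6.0 rpbp for 88 symbols outside it.

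The mice were untreated C57BL/6 animals, male and 3 to 6 months of age, kept under 12 hr of light and 12 hr of dark for at least 2 weeks. Livers were taken every 4 hr in 2 independent series, so that ZT12 and ZT16 had 2 libraries each of the 12 in the study. RNA bound to chromatin was recovered from purified nuclei after lysis in a urea and detergent buffer, and polyadenylated RNA was removed (Nascent-Seq). Whole liver was used, in which a smaller number of cells of one type and less RNA per cell of that type cannot be told apart.

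Mice are nocturnal, and the first hours of dark are when they begin to feed. In the molecular clock of liver, the activators CLOCK and BMAL1 drive the genes of their own repressors (the PER and CRY proteins, REV-ERBα and REV-ERBβ) and of output factors such as DBP, whose transcription therefore runs in daily waves. Hepatocytes also make most plasma proteins, among them the acute-phase proteins that inflammatory cytokines induce, and they break down amino acids and make glucose when food is absent.

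The 4 libraries were close in total but not in level. The sum of all rpbp values lay between 122892 and 140966, while the median over the members was 8.8 and 9.3 rpbp at ZT12 against 8.2 and 7.3 rpbp at ZT16. The median log2 difference of the members, ZT16 minus ZT12 on log2(rpbp + 1), was -0.215, and 24.4% of members had a difference above 0. After the medians of the libraries were made equal the median difference was -0.014 and 48.0% lay above 0, so that a difference of a single gene is best read against the median of all. The ZT16 pair was the more variable: 26.4% of members differed more than 1.5-fold in rpbp + 1 between its replicates, against 14.6% at ZT12. At ZT0 the share was 13.0% and at ZT4 8.6%. A gene could become a member through 1 high library of ZT12 or ZT16, but not of ZT0 or ZT4. The limit itself can therefore widen the spread of the first 2 pairs beside the other 2.

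Between ZT12 and ZT16, 15 genes passed the test (limma on the 8 libraries sequenced in 1 lane, adjusted p under 0.05 over all 5211 members), which is 0.288% of the members. Of these, 9 rose (0.173%) and 6 fell (0.115%). The genes that rose included the acute-phase genes Saa1, Saa2 and Hpx, the chemokine gene Cxcl1 and the magnesium transporter gene Slc41a2. Those that fell included the clock repressor gene Gm129, the urea cycle gene Asl and the kinase genes Map2k6 and Mknk2. With equal medians 9 genes passed, 7 higher and 2 lower, and of the 15 genes 8 were among them. At an unadjusted p under 0.05 there were 736 genes, 128 higher and 608 lower at ZT16. With the 4 libraries of ZT12 and ZT16 alone, which leave 2 residual degrees of freedom, no gene passed (500 had an unadjusted p under 0.05 and the lowest adjusted p was 0.17). The calls therefore rest on a spread estimated together with the libraries of ZT0 and ZT4. The fit takes 1 spread for all time points although the ZT16 pair was the most variable, so the SEs and p-values given here may be too small. With libraries weighted by their spread (0.57 for ZT16, 1.86 for ZT4) 7 genes passed.

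**Figure D1:**
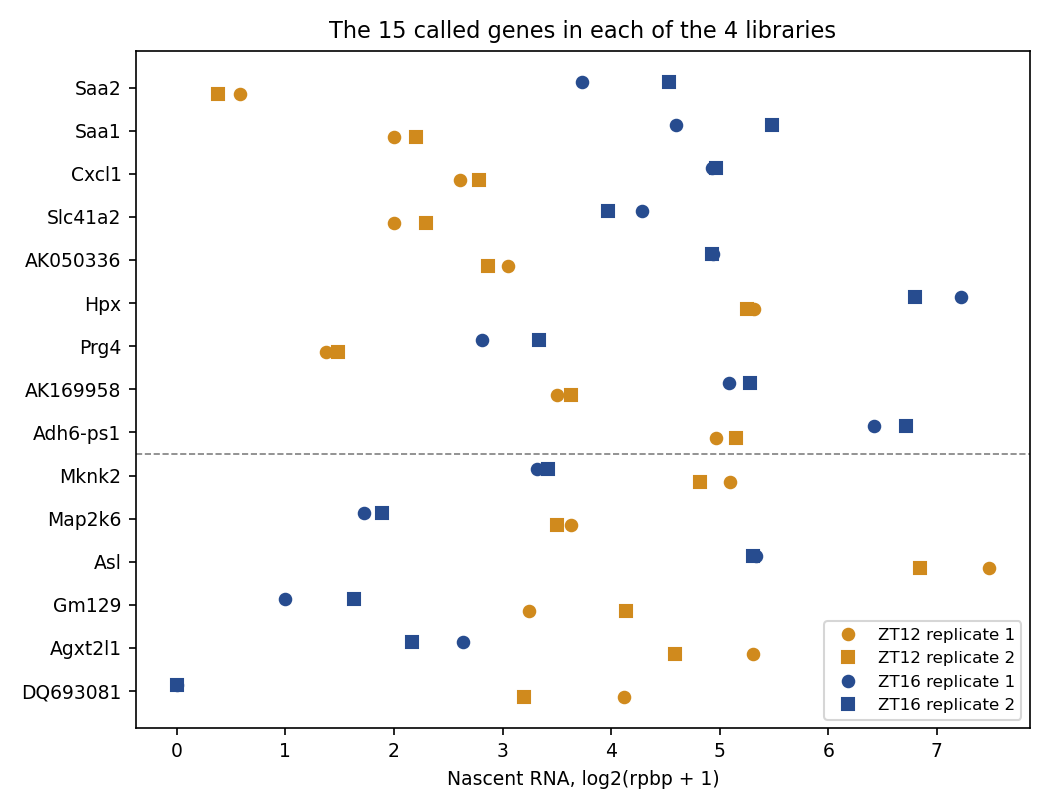
Nascent RNA of the 15 genes with an adjusted p under 0.05, on log2(rpbp + 1), in each replicate of ZT12 (orange) and ZT16 (blue). Genes above the dashed line rose and genes below it fell; in each gene both ZT16 points lie on one side of both ZT12 points, and DQ693081 is at 0 in both ZT16 libraries.

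Most genes with a large difference did not pass the test. Over all members, 79 genes had a log2 difference above 1 and 214 below -1. The plot of difference against level has the called genes at its edges, from 1.51 to 3.65 on the upper side and from -1.58 to -2.54 on the lower side, leaving aside DQ693081, which was listed at 0 in both ZT16 libraries.

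**Figure D2:**
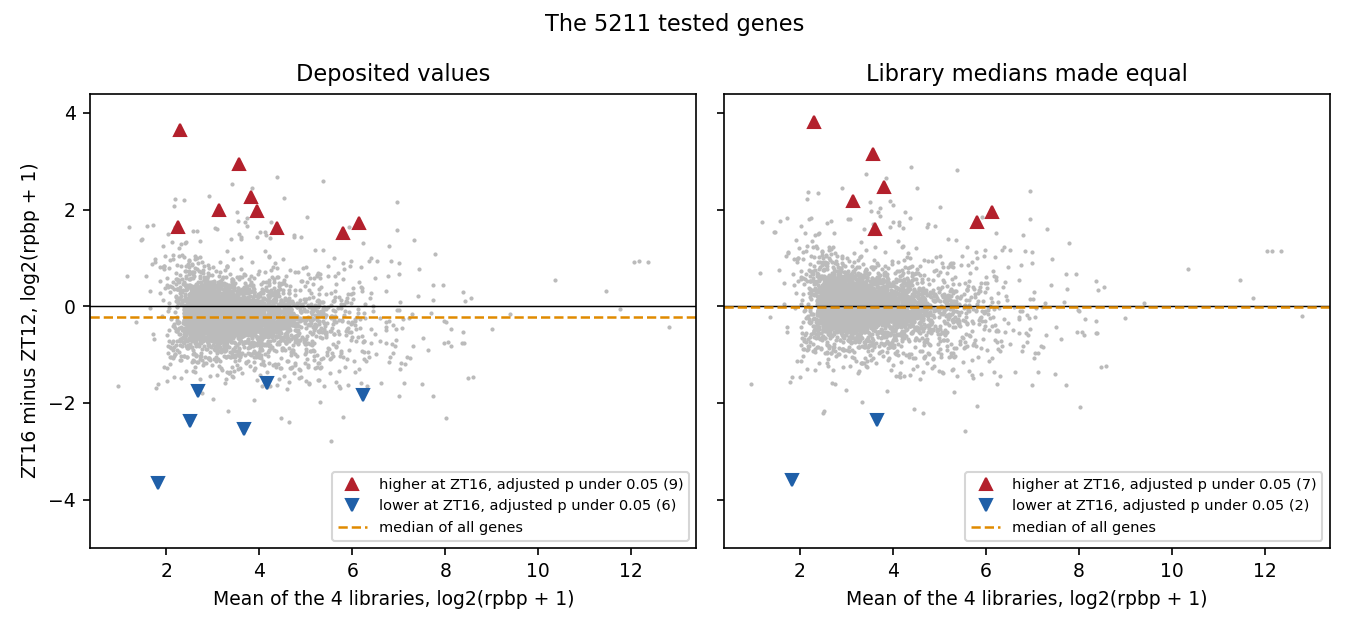
Difference between ZT16 and ZT12 on log2(rpbp + 1) against the mean level of the 4 libraries for the 5211 members, with deposited values (left) and after the library medians were made equal (right). Triangles mark genes with an adjusted p under 0.05, 9 higher and 6 lower on the left and 7 higher and 2 lower on the right, and the dashed line is the median of all members, -0.215 on the left and -0.014 on the right.

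The largest rise was that of the serum amyloid A genes, which encode acute-phase apolipoproteins secreted by the liver. Saa2 (chr7:54007203-54009682, mm9, + strand) had a Nascent-Seq signal of 0.5 and 0.3 rpbp at ZT12 and of 12.3 and 22.1 rpbp at ZT16. Saa1 (chr7:53995869-53998350, - strand) had 3.0 and 3.6 rpbp at ZT12 and 23.2 and 43.6 rpbp at ZT16. In both genes the lower ZT16 library was several times above the higher ZT12 library, and replicate 2 was the higher of the ZT16 pair. The log2 differences were 3.65 ± 0.31 (SE, adjusted p = 0.00685) for Saa2 and 2.94 ± 0.33 (adjusted p = 0.0177) for Saa1. These genes are close copies of each other, so the reads that the authors could assign to one or the other were limited to those that map to a unique place, and the split between them is uncertain.

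Saa1 and Saa2 were at or below 1.3 rpbp in each of the 8 libraries of ZT0, ZT4, ZT8 and ZT20. Together with Cxcl1, Slc41a2 and Hpx they were the 5 of the 9 risen genes whose ZT16 values both exceeded all of the other 10 libraries of the day, a pattern seen in 68 members, or 1.3%. The risen genes were picked for ZT16 values above ZT12, which is part of this pattern, so the 1.3% is no fair comparison for them. Saa1, Saa2, Cxcl1 and Slc41a2 were also members only through their ZT16 values. The libraries of ZT8 and ZT20 were sequenced in 2 lanes and entered no test.

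Hpx encodes hemopexin, the plasma protein that binds free heme. Its signal (chr7:112740125-112748610, - strand) was 38.7 and 37.1 rpbp at ZT12 and 148.7 and 110.3 rpbp at ZT16. The ZT12 replicates were nearly equal and both ZT16 libraries were far above them, a log2 difference of 1.73 ± 0.22 (adjusted p = 0.0296), or 3.32-fold on the rpbp + 1 scale. Cxcl1, which encodes a chemokine that attracts neutrophils, had 5.1 and 5.9 rpbp at ZT12 and 29.5 and 30.2 rpbp at ZT16 (chr5:91320336-91322141, + strand). The pairs were tight on both sides, and the log2 difference was 2.25 ± 0.23 (adjusted p = 0.0177), or 4.76-fold.

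To show what lies in front of these genes, the 250 bases before the RefSeq start were taken from GRCm38.p6, a later build than that of the signal table. The acute-phase promoters are shown because 16 of the 23 genes of the acute-phase and secreted protein list with a promoter in the table (69.6%) hold the letters TTNNGCAA on either strand, the core that C/EBP factors read, against 10.8% of all genes with a promoter. Capitals mark these letters in Saa1, Saa2 and Hpx. In Cxcl1 they mark the letters GGNNTTTCC on either strand, a form of the NF-κB core, which 5.6% of all genes hold.
Saa1 (chr7:46742981-46743230, - strand): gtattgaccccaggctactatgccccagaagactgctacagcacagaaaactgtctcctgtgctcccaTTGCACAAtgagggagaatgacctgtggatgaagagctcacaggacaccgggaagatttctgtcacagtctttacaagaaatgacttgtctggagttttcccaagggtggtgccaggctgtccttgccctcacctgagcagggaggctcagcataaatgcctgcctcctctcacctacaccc
Saa2 (chr7:46751583-46751832, + strand): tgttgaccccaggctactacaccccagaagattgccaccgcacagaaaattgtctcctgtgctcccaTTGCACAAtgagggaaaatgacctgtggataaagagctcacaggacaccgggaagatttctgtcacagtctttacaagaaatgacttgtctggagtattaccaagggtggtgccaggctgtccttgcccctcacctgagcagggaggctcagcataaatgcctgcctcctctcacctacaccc
Hpx (chr7:105600117-105600366, - strand): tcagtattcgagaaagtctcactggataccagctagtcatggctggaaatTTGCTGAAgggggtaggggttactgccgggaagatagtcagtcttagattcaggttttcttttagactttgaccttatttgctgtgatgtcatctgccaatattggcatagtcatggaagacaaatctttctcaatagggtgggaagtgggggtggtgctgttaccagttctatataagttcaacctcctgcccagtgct
Cxcl1 (chr5:90890995-90891244, + strand): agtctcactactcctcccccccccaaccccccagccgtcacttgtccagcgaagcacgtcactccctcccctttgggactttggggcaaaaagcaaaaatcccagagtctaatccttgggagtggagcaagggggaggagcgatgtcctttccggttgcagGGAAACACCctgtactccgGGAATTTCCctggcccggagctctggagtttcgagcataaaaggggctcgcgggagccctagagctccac
The windows of Saa1 and Saa2 were alike in 238 of 250 bases (95.2%), with the capital letters in nearly the same place. The letters do not sort the list by direction: genes with TTNNGCAA included Saa1, Saa2, Hpx, C3 and Fga, higher at ZT16, and Alb, Ahsg and Rbp4, lower at ZT16. A match of letters is a description of the window and not a site shown to be bound.

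Of the acute-phase and secreted protein list, 31 of 39 genes were members, and their median log2 difference was 0.40 against -0.215 for all members. Saa1, Saa2 and Hpx passed the test upward and none downward. Both ZT16 values were above both ZT12 values in 11 of the 31 (35.5%), against 6.51% of all members, and below them in 6 (19.4%), against 37.3% of all members. With equal medians the list had 15 higher (48.4%) and 6 lower (19.4%), where all members had 16.8% higher and 19.0% lower.

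Orm1, which encodes the acute-phase protein orosomucoid, had 7.8 and 11.8 rpbp at ZT12 and 57.7 and 41.6 rpbp at ZT16. The groups were well apart, with a log2 difference of 2.24 that missed the threshold (adjusted p = 0.0506). Orm2 and Orm3, near copies of Orm1 whose reads may be split, had differences of 1.68 and 2.08, and in both replicate 1 of ZT16 was the higher one (11.8 and 1.7 rpbp in Orm2, 15.0 and 4.3 rpbp in Orm3).

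None of the complement and inhibitor genes of the list passed the test. C3, the central complement component, had 51.3 and 98.3 rpbp at ZT12 and 204.9 and 226.4 rpbp at ZT16 (log2 difference 1.59, adjusted p = 0.181). C4b had 62.1 and 69.1 rpbp and then 112.7 and 141.3 rpbp (0.94, adjusted p = 0.138). The values of Itih3, which encodes a chain that binds hyaluronan in plasma, went from 130.4 and 174.9 to 338.2 and 302.5 rpbp (1.08, adjusted p = 0.297). In Cfb, Serpina3n and Serpina3k the groups overlapped, with differences of 0.50, -0.03 and -0.13, and Serpina1b was lower (-0.81).

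The 6 genes of the list with lower values at ZT16 were genes of abundant plasma carriers and of a protease inhibitor: Alb, Rbp4, Apoe, Ahsg, Apoa1 and Serpina1b. Alb, which encodes albumin, had 453.5 and 788.0 rpbp at ZT12 and 282.4 and 160.3 rpbp at ZT16 (log2 difference -1.49, adjusted p = 0.257). Rbp4, the retinol carrier, had 111.9 and 121.8 rpbp and then 53.5 and 58.4 rpbp (-1.05, adjusted p = 0.190). Albumin and the retinol carrier are known as negative acute-phase proteins, which inflammation lowers.

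Not every acute-phase gene took part. Crp had 72.9 and 66.5 rpbp at ZT12 and 81.7 and 55.2 rpbp at ZT16, and Saa4, the constitutive member of the serum amyloid family, had 63.3 and 110.3 against 64.8 and 75.7 rpbp. In both the groups overlapped. Hp, which encodes haptoglobin, had 45.9 and 84.2 rpbp at ZT12 and 96.8 and 70.6 rpbp at ZT16, and its groups overlapped as well.

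The markers of other liver cells were summed beside these genes. Over the 11 Kupffer and macrophage markers, of which 3 were members, the sum was 66.4 and 61.1 rpbp at ZT12 and 62.5 and 47.2 rpbp at ZT16. The 11 lymphocyte markers, none of them a member and 1 of them listed at 0 in all 4 libraries, came to 6.0 and 6.5 rpbp and then 6.7 and 4.5 rpbp. The 11 endothelial markers came to 63.1 and 50.2 rpbp and then 71.2 and 61.3 rpbp. No marker of these 3 lists passed the test, and the markers of hepatocytes stood at 2054.9 and 2177.1 rpbp at ZT12 and 1150.4 and 1386.3 rpbp at ZT16. Of the 10 hepatocyte markers 9 were members. The part of cell composition in the rise of Saa1, Saa2, Hpx and Cxcl1 was not tested.

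The remaining 5 risen genes were 3 with a gene name of their own and 2 clone names. Slc41a2 (chr10:82693884-82800562, - strand) had 3.0 and 3.9 rpbp at ZT12 and 18.5 and 14.7 rpbp at ZT16, a log2 difference of 1.98 ± 0.23 (adjusted p = 0.0177). Adh6-ps1 (chr3:138037085-138051255, + strand), an alcohol dehydrogenase locus, had 30.3 and 34.4 rpbp and then 84.5 and 104.2 rpbp (1.51 ± 0.20, adjusted p = 0.0334). Prg4 (chr1:152297001-152313295, - strand), the gene of lubricin, had 1.6 and 1.8 rpbp and then 6.0 and 9.1 rpbp (1.64 ± 0.23, adjusted p = 0.0424), at a locus that shares 62 bases with Tpr. All 3 had both ZT16 values above both ZT12 values by more than the gap within either pair.

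The other 2 were clone names inside larger genes. AK050336 (chr8:130979385-131012012) lies in Nrp1, the gene of the receptor neuropilin-1, and had 7.3 and 6.3 rpbp at ZT12 and 29.7 and 29.5 rpbp at ZT16 (1.98 ± 0.28, adjusted p = 0.0424). Nrp1 itself had 5.6 and 5.0 rpbp and then 13.5 and 30.4 rpbp, which did not pass (1.76, adjusted p = 0.147). AK169958 (chr15:67005199-67008288) lies in the interval of St3gal1, a sialyltransferase gene, and had 10.3 and 11.4 rpbp and then 32.9 and 37.8 rpbp (1.62 ± 0.24, adjusted p = 0.0458), while St3gal1 had a difference of 1.42 (adjusted p = 0.138). The signal was counted without strand, so the reads of a clone and of the gene around it cannot be told apart. Some of these genes were as high at other times of the day: AK050336 had 38.9 and 37.6 rpbp at ZT0, and Adh6-ps1 had 90.0 and 92.8 rpbp at ZT0.

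Among the genes next in line on the upper side, Atp11a, which encodes a phospholipid flippase, had 6.5 and 6.6 rpbp at ZT12 and 18.5 and 19.2 rpbp at ZT16 (adjusted p = 0.0543). It was the only gene called with equal medians that was not called with the deposited values (adjusted p = 0.0486 there). The transcript 8430415E04Rik, which coincides with the phosphatase subunit gene Ppp4r4, had 9.3 and 9.9 rpbp and then 25.1 and 31.9 rpbp (adjusted p = 0.0506). In both genes the pairs were tight and the groups did not overlap.

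**Figure D3:**
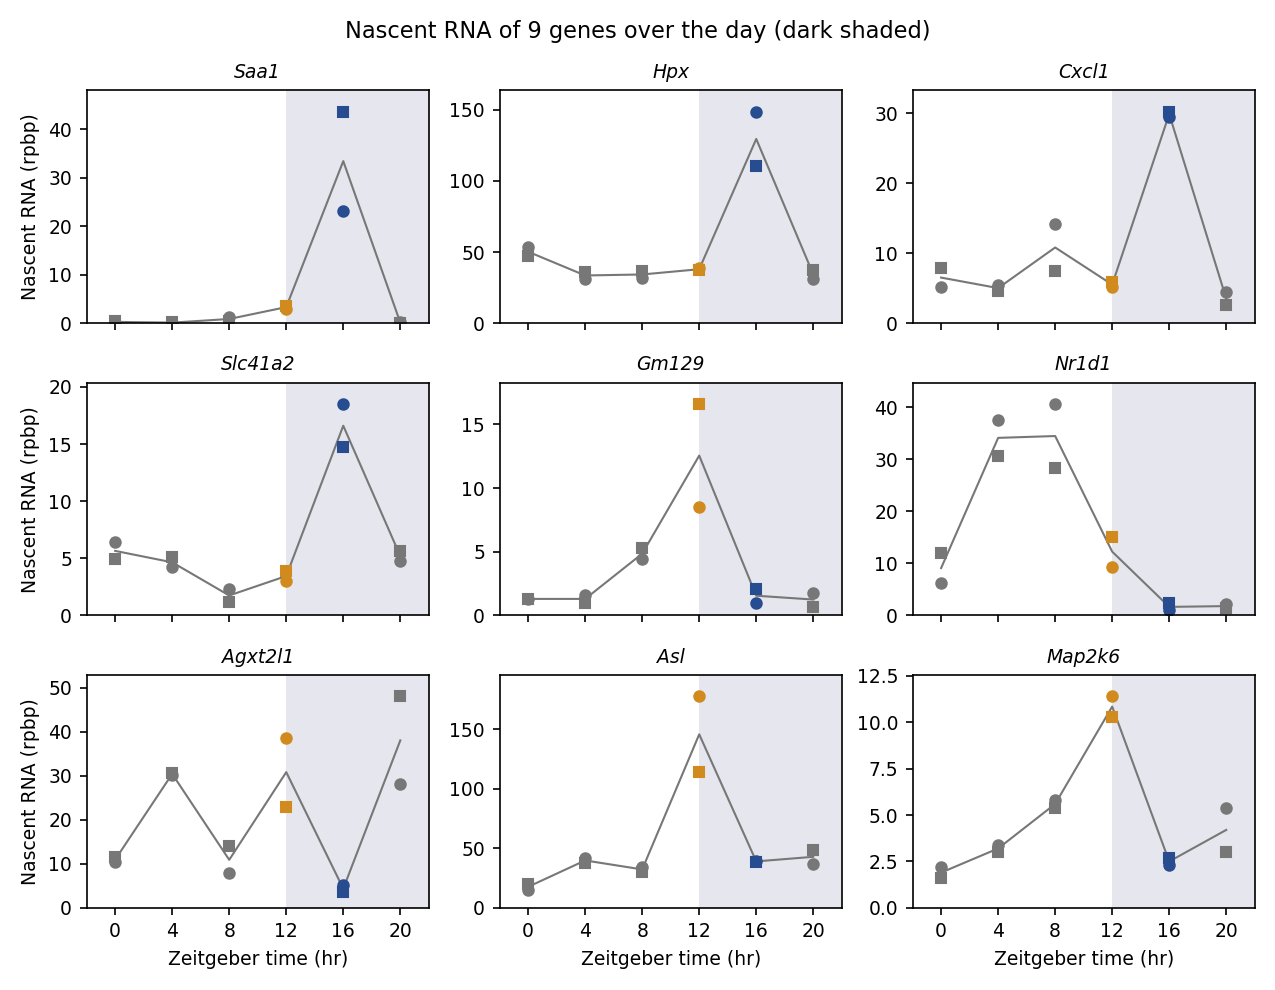
Nascent RNA in rpbp of 9 named genes over the 6 time points of the day, with replicate 1 as circles, replicate 2 as squares, the mean as a line and the dark period shaded. ZT12 is orange and ZT16 blue; Saa1, Hpx, Cxcl1 and Slc41a2 have both ZT16 points above all other points, Gm129, Asl and Map2k6 have both ZT12 points above all others, and Nr1d1 is already far below its ZT4 and ZT8 values at ZT12.

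In 5 of the 6 genes that fell (Gm129, Asl, Map2k6, Mknk2 and DQ693081) ZT20 was again below ZT12, and both ZT12 values exceeded all of the other 10 libraries, a pattern seen in 482 members, or 9.2%. The exception was Agxt2l1, which had 28.0 and 48.0 rpbp at ZT20. The fallen genes were picked for ZT12 values above ZT16, which is part of this pattern, so the 9.2% is no fair comparison for them.

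Gm129 (chr3:95682428-95686151, - strand) is named Ciart in RefSeq and encodes a repressor of CLOCK and BMAL1. It lies inside C920021L13Rik, which runs on the other strand. It had 8.5 and 16.6 rpbp at ZT12 and 1.0 and 2.1 rpbp at ZT16, so that even the lower ZT12 library was well above both ZT16 libraries. The log2 difference was -2.38 ± 0.34 (adjusted p = 0.0424). Its promoter is shown because it holds the E-box CACGTG, the letters read by CLOCK and BMAL1, at 3 places within 250 bases, marked by capitals, whereas 6.9% of all genes with a promoter hold it at all (GRCm38.p6, RefSeq).
Gm129 (chr3:95882229-95882478, - strand): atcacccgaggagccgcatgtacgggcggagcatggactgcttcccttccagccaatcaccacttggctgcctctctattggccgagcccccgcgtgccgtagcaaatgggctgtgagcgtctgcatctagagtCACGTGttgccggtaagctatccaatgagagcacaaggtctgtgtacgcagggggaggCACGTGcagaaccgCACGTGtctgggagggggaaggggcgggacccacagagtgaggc
The 3 E-boxes begin 116, 58 and 44 bases before the start. Of the 8 clock repressor genes with a promoter in the table, 3 hold the E-box in this window (Per1, Cry1 and Gm129), and Nr1d1 does not, which says only that these letters are absent from this window.

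Of the 12 clock repressor genes, 11 were members and Gm129 alone passed the test. Their median log2 difference was -1.16. Both ZT16 values were below both ZT12 values in 8 of 11 (72.7%), with the deposited values and with equal medians alike. Of all members 37.3% were lower with the deposited values and 19.0% with equal medians. Nr1d1, which encodes REV-ERBα, had 9.4 and 15.1 rpbp at ZT12 and 1.0 and 2.3 rpbp at ZT16 (-2.33 ± 0.37, adjusted p = 0.0541), at a locus whose exons overlap those of Thra on the other strand. Per1 had 16.8 and 30.4 rpbp and then 8.7 and 8.1 rpbp (-1.33, adjusted p = 0.150), and Per3 had 22.4 and 22.6 rpbp and then 6.2 and 12.1 rpbp (-1.27, adjusted p = 0.355). In these 3 genes the groups did not overlap.

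Nr1d2, Bhlhb2 (Dec1), Cry2 and Rora had differences from -1.19 to -0.40, each with groups that did not overlap and an adjusted p of 0.27 or more. In Bhlhb2 most of the difference was in replicate 2 of ZT16, with 17.1 and 5.9 rpbp against 21.8 and 27.5 rpbp at ZT12. Per2 and Cry1 stood out from the other repressors. Per2 had 25.4 and 35.0 rpbp at ZT12 and 34.2 and 22.6 rpbp at ZT16, and Cry1 had 5.5 and 5.8 rpbp and then 6.2 and 4.8 rpbp. Their groups overlapped, with differences of -0.10 and -0.04 that became 0.12 and 0.15 with equal medians.

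The activators could hardly be compared. Clock had 6.7 and 8.0 rpbp at ZT12 and 8.8 and 8.4 rpbp at ZT16 (0.21, adjusted p = 0.659). Arntl, the gene of BMAL1, stayed below the limit with 1.8 and 1.3 rpbp at ZT12 and 4.2 and 3.3 rpbp at ZT16, and Npas2 with at most 0.3 rpbp in these 4 libraries. Both were several times higher at ZT20, where Arntl had 10.4 and 9.1 rpbp and Npas2 had 8.0 and 5.1 rpbp.

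The clock output list (21 genes, 16 of them members) had no call and a median difference of -0.99. Both ZT16 values were lower in 12 of the 16 (75.0%) and higher in 2 (12.5%), Nfil3 and Timeless. Of all members 37.3% were lower and 6.51% higher. With equal medians 11 (68.8%) were lower and 2 (12.5%) higher, where all members had 19.0% and 16.8%. Dbp, which encodes a PAR bZIP activator, had 18.5 and 22.7 rpbp at ZT12 and 3.7 and 3.8 rpbp at ZT16, a wide gap with tight pairs (-2.18, adjusted p = 0.138). Its relatives Tef (42.7 and 46.7 rpbp, then 17.3 and 17.9 rpbp, -1.30) and Hlf (8.1 and 13.6 rpbp, then 7.4 and 3.7 rpbp, -0.88) lay on the same side. Nfil3, which encodes the repressor that binds the same D-box as DBP, had 9.7 and 7.6 rpbp at ZT12 and 12.3 and 15.1 rpbp at ZT16 (0.61, adjusted p = 0.332).

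Ccrn4l, which encodes nocturnin, a phosphatase of NADPH, had 38.9 and 35.3 rpbp at ZT12 and 12.2 and 13.7 rpbp at ZT16 (-1.45 ± 0.23, adjusted p = 0.0541). Klf15, a regulator of amino acid and glucose genes, had 100.4 and 76.8 rpbp and then 41.4 and 31.2 rpbp (-1.26, adjusted p = 0.150). Usp2, a deubiquitinase gene, had 5.9 and 8.1 rpbp and then 2.6 and 3.0 rpbp (-1.06, adjusted p = 0.138). The widest gap of the list was that of Upp2, a uridine phosphorylase gene, with 132.6 and 113.5 rpbp at ZT12, but its ZT16 libraries stood apart from each other at 7.2 and 37.6 rpbp (-2.80, adjusted p = 0.138). Alas1, the first enzyme of heme synthesis, also had ZT16 libraries far apart, with 76.0 and 275.4 rpbp against 264.3 and 198.4 rpbp at ZT12, and its groups overlapped.

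Genes of amino acid breakdown and the urea cycle had more members than any other list. Of 47 genes 44 were members, none rose, and the median difference was -0.77. The 2 that fell were Asl and Agxt2l1, the latter listed here though its enzyme breaks down phosphoethanolamine. Both ZT16 values were lower in 27 of the 44 (61.4%) and higher in none, where 37.3% and 6.51% of all members were. With equal medians 22 (50.0%) were lower and again none higher, where 19.0% and 16.8% of all members were.

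Asl (chr5:130487373-130500201, - strand) encodes argininosuccinate lyase, which releases arginine in the urea cycle. It had 177.6 and 113.8 rpbp at ZT12 and 39.4 and 38.6 rpbp at ZT16, so that the ZT16 replicates were nearly equal and both ZT12 libraries were far above them (-1.84 ± 0.26, adjusted p = 0.0424). The clone AK212710, which overlaps Asl, had a difference of -1.62 (adjusted p = 0.131). Agxt2l1 (chr3:130320493-130338666, + strand), named Etnppl in RefSeq, encodes the enzyme that breaks down phosphoethanolamine. It had 38.6 and 23.0 rpbp at ZT12 and 5.2 and 3.5 rpbp at ZT16, again with groups far apart (-2.55 ± 0.28, adjusted p = 0.0177).

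The rest of the urea cycle was uneven. Ass1, whose enzyme acts just before argininosuccinate lyase, had 221.3 and 67.4 rpbp at ZT12 and 39.6 and 14.8 rpbp at ZT16 (-2.28, adjusted p = 0.186). Arg1, the arginase gene, had 101.4 and 88.3 rpbp and then 48.3 and 16.6 rpbp (-1.70, adjusted p = 0.269). Cps1, whose enzyme opens the cycle, had 372.0 and 292.1 rpbp and then 171.9 and 323.8 rpbp, and Otc had 12.4 and 8.6 rpbp and then 8.6 and 10.1 rpbp. In Ass1 and Arg1 the groups did not overlap, and in Cps1 and Otc they did.

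None of the genes of aromatic amino acid breakdown passed the test. Tat, tyrosine aminotransferase, had 456.6 and 357.2 rpbp at ZT12 and 148.4 and 82.9 rpbp at ZT16 (-1.85, adjusted p = 0.138). Tdo2, the gene of tryptophan dioxygenase, had 126.9 and 154.8 rpbp and then 41.4 and 46.1 rpbp (-1.66, adjusted p = 0.138). Hpd, the next enzyme after Tat, had 215.2 and 134.8 rpbp and then 63.9 and 48.7 rpbp (-1.59, adjusted p = 0.138). All 3 had both ZT16 values far below the lower ZT12 value. Fah, of the same tyrosine pathway, had 51.7 and 54.1 rpbp and then 36.8 and 51.8 rpbp (-0.27), and its groups overlapped. Hgd (-0.84) had groups that overlapped with equal medians, and Kmo, Cbs and Kynu had differences of 0.47, 0.13 and 0.08 and groups that overlapped.

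**Figure D4:**
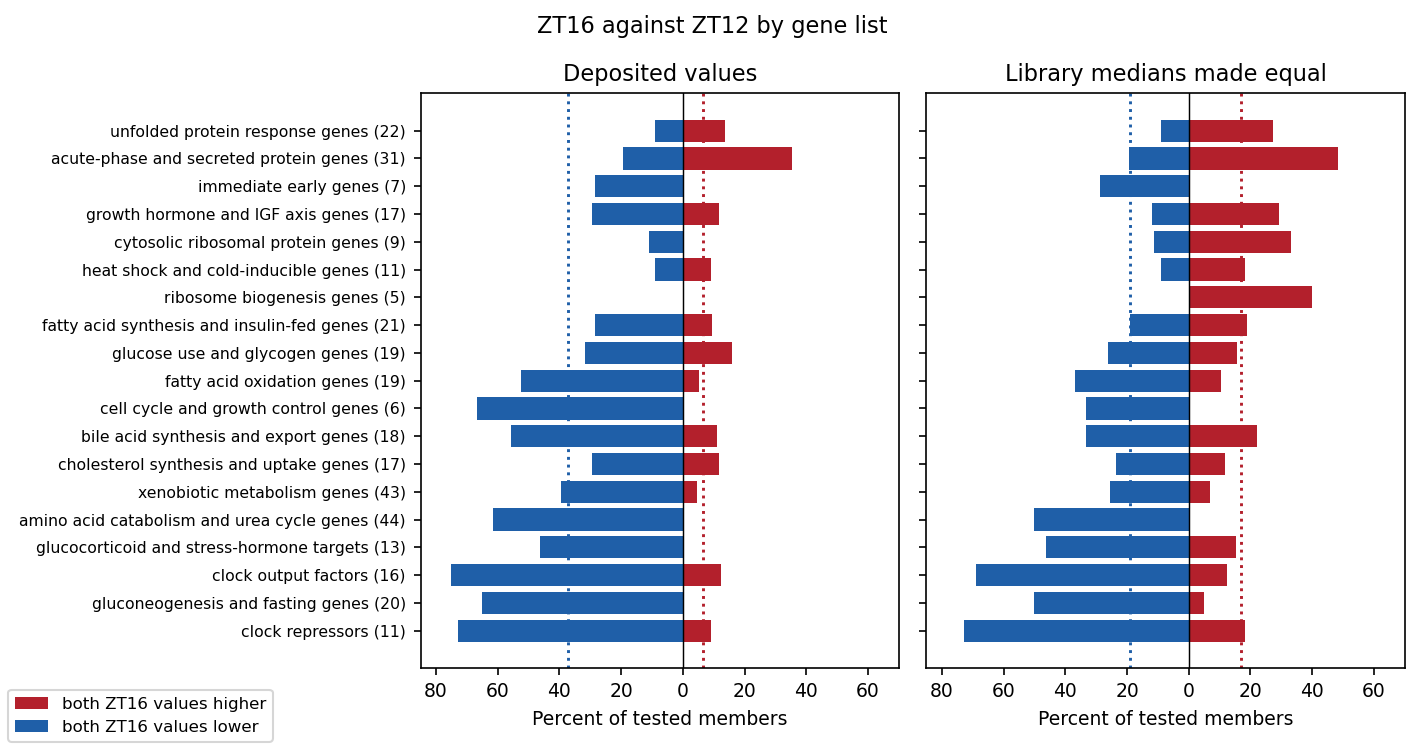
Percent of the tested members of each gene list (number in brackets) with both ZT16 values above (red, to the right) or below (blue, to the left) both ZT12 values, with deposited values and with equal library medians, ordered by the median difference. Dotted lines give the same percent over all 5211 members, 6.51% and 37.3% on the left and 16.8% and 19.0% on the right; amino acid genes have no bar to the right in either panel.

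Genes of gluconeogenesis and fasting (20 members of 27) had a median difference of -1.09 and no call. Both ZT16 values were lower in 13 (65.0%) and higher in none, where 37.3% and 6.51% of all members were. With equal medians they were lower in 10 (50.0%) and higher in 1 (5.0%), where all members had 19.0% and 16.8%. Pck1, the gene of the enzyme that commits carbon to glucose, was among the highest members, with 630.4 and 654.7 rpbp at ZT12 and 162.9 and 327.3 rpbp at ZT16 (-1.47, adjusted p = 0.196). Cpt1a, which encodes the gate of fatty acid entry into mitochondria, had 38.6 and 33.0 rpbp and then 14.5 and 17.0 rpbp (-1.14, adjusted p = 0.131). Both had groups that did not overlap.

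G6pc, the last enzyme before free glucose, had 215.2 and 52.3 rpbp at ZT12 and 43.5 and 38.3 rpbp at ZT16, so that the size of its difference (-1.36, adjusted p = 0.344) came mainly from replicate 1 of ZT12. Igfbp1 had 59.8 and 4.7 rpbp at ZT12 and 3.9 and 11.1 rpbp at ZT16 and overlapped. Within ZT12, 6 of the 20 genes of this list were more than 2-fold higher in replicate 1 than in replicate 2 in rpbp + 1, the scale of all such counts here, and none the other way, where over all members 104 were higher in replicate 1 and 98 in replicate 2.

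Targets of glucocorticoids, the adrenal hormones that peak near the onset of activity, had 13 members of 18, no call and a median difference of -0.81, with 6 lower (46.2%) and none higher, where 37.3% and 6.51% of all members were. With equal medians they were 6 and 2, where all members had 19.0% and 16.8%. Tsc22d3 (GILZ) had 26.4 and 36.3 rpbp at ZT12 and 14.3 and 5.6 rpbp at ZT16 (-1.67, adjusted p = 0.218). Tat and Per1, described above, are also on this list. Mt1 and Mt2, the metallothionein genes, did not follow: Mt1 had 6.2 and 12.5 rpbp and then 2.0 and 27.3 rpbp, and Mt2 2.1 and 4.8 rpbp and then 1.5 and 11.6 rpbp.

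The signaling genes that fell are both in kinase cascades. Map2k6 (chr11:110260436-110374951, + strand), which encodes an activator of p38, had 11.4 and 10.3 rpbp at ZT12 and 2.3 and 2.7 rpbp at ZT16 (-1.76 ± 0.20, adjusted p = 0.0177). Mknk2 (chr10:80128074-80139038, - strand), whose kinase phosphorylates the cap-binding protein eIF4E, had 33.1 and 27.2 rpbp and then 9.0 and 9.7 rpbp (-1.58 ± 0.23, adjusted p = 0.0458). Both had tight pairs and wide gaps. The symbol Mnk2, which covers the same locus as Mknk2, had a difference of -1.66 (adjusted p = 0.0543), and its reads are largely the same.

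The sixth was DQ693081, a span of 30 bases on chromosome 19 (chr19:37331866-37331895) where the annotation used here holds no gene. It had 16.4 and 8.2 rpbp at ZT12 and was listed at 0 in both ZT16 libraries (adjusted p = 0.00685). On so short a span a few reads make a large value, and its fitted difference is not a measured fold, since the pseudocount sets its size. A similarly short transcript, NR_002865, is the 108-base U11 RNA of the minor spliceosome, with 760.0 and 441.4 rpbp at ZT12 and 99.8 and 134.8 rpbp at ZT16 (adjusted p = 0.0543) and with 1319 and 60.2 rpbp in the replicates of ZT20.

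Next in line on the lower side were Arrdc2, an arrestin-domain gene (10.4 and 13.0 rpbp, then 3.3 and 2.1 rpbp, adjusted p = 0.0506), and Papss2, which makes the sulfate donor PAPS (15.9 and 15.0 rpbp, then 5.3 and 6.4 rpbp, adjusted p = 0.0855). Sfxn2, a mitochondrial carrier gene, had 15.8 and 15.2 rpbp and then 6.9 and 6.2 rpbp (adjusted p = 0.104). All 3 had groups that did not overlap.

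In lipid and bile acid metabolism no gene passed the test. The bile acid list (18 members of 19) had 10 genes lower (55.6%) and 2 higher (11.1%), where 37.3% and 6.51% of all members were. With equal medians it had 6 lower (33.3%) and 4 higher (22.2%), where all members had 19.0% and 16.8%. Its median difference was -0.49. Cyp7a1, the rate-limiting enzyme of bile acid synthesis, had 76.4 and 49.0 rpbp at ZT12 and 19.4 and 32.2 rpbp at ZT16 (-1.26, adjusted p = 0.244). Cyp7b1, of the alternative pathway, lay on the other side with 21.8 and 13.5 rpbp and then 42.1 and 55.4 rpbp (1.44, adjusted p = 0.335), as did the bile salt pump gene Abcb11 (0.68). Abcg5 and Abcg8, which together encode the sterol exporter, were lower together: Abcg5 had 32.7 and 24.1 rpbp and then 8.3 and 5.1 rpbp (-1.95, adjusted p = 0.122), and Abcg8 had 20.8 and 13.2 rpbp and then 6.5 and 4.6 rpbp (-1.44, adjusted p = 0.181).

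Fatty acid oxidation genes (19 members of 29) had a median difference of -0.45. Of these, 10 were lower (52.6%) and 1 higher (5.3%), where 37.3% and 6.51% of all members were. Xenobiotic metabolism genes (43 of 64) had 17 lower (39.5%), 2 higher and a median of -0.64, where 37.3% of all members were lower. With equal medians these lists had 7 (36.8%) and 11 (25.6%) lower and 2 (10.5%) and 3 (7.0%) higher, where all members had 19.0% and 16.8%. In the latter list Fmo5 had 212.6 and 277.9 rpbp and then 70.4 and 62.9 rpbp (-1.85, adjusted p = 0.138), while Cyp2c70, which makes the muricholic acids of mice, had 9.4 and 26.7 rpbp and then 60.3 and 168.6 rpbp (2.59, adjusted p = 0.159). Glucose use genes (19 of 24) had 6 lower and 3 higher, with a median of -0.37, and cholesterol genes (17 of 31) had 5 lower and 2 higher, with a median of -0.56. With the deposited values the share of lower genes in these 2 lists (31.6% and 29.4%) was below the 37.3% of all members. With equal medians it was above the 19.0% of all members, at 26.3% (5 genes) for glucose use and 23.5% (4 genes) for cholesterol. Higher with equal medians were 3 (15.8%) and 2 (11.8%), against 16.8% of all members.

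The spread within ZT16 was not even over the lists. Among genes of the unfolded protein response, which encode the chaperones and degradation factors of the endoplasmic reticulum, 16 of 22 were more than 2-fold higher in replicate 1 of ZT16 than in replicate 2, and none the other way. Over all members 349 were more than 2-fold higher in replicate 1 and 186 in replicate 2, 10.3% in all. Replicate 1 was the highest of the 4 libraries in 18 of the 22 genes and replicate 2 the lowest in 17. As in the lists above, most genes named for their replicates here were picked after their values were seen.

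Hspa5, the gene of the chaperone BiP, had 76.1 rpbp in replicate 1 and 13.0 rpbp in replicate 2 of ZT16, on either side of 15.5 and 22.4 rpbp at ZT12. Hsp90b1 had 156.6 and 26.5 rpbp against 33.4 and 47.6 rpbp at ZT12, and Creld2 had 41.4 and 3.0 rpbp against 6.1 and 9.9 rpbp. The median difference between the ZT16 replicates was 1.69 on the log2 scale for this list and 0.12 for all members. Between the time points the list had no call and a median difference of 0.45. It had 3 genes higher (Xbp1, Syvn1 and Derl3, 13.6%) and 2 lower (Herpud1 and Atf6, 9.1%), against 6.51% and 37.3% of all members. With equal medians it had 6 higher (27.3%) and 2 lower (9.1%), against 16.8% and 19.0%. In 17 of the 22 the groups overlapped.

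Fatty acid synthesis genes leaned the same way within ZT16, with 9 of 21 more than 2-fold higher in replicate 1 and 1 in replicate 2. Scd1, the stearoyl-CoA desaturase gene, had 48.7 and 1.5 rpbp at ZT16 against 1.3 and 1.6 rpbp at ZT12, and Fasn had 52.2 and 8.4 rpbp against 11.2 and 26.4 rpbp. In cholesterol genes 7 of 17 were more than 2-fold higher in replicate 1 and none in replicate 2. At ZT12 no gene of the unfolded protein response list differed more than 2-fold between the replicates in rpbp + 1, although the low values of Derl3 (5.5 and 2.4 rpbp) did so in rpbp.

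Other genes stood higher in replicate 2 of ZT16. Igf1, the growth factor gene that growth hormone drives, had 14.2 and 95.7 rpbp at ZT16 against 45.6 and 23.0 rpbp at ZT12. Lpin1, which encodes a lipid phosphatase and coactivator of fasting, had 4.3 and 103.0 rpbp against 85.7 and 62.4 rpbp, and Serpina3k had 70.5 and 547.1 rpbp against 387.0 and 120.3 rpbp. Growth hormone and IGF axis genes were more than 2-fold higher in replicate 2 in 5 of 17 and in replicate 1 in 1, and gluconeogenesis and fasting genes in 6 and 1 of 20. Counting both directions, 61.5% of glucocorticoid targets and 48.8% of xenobiotic genes differed more than 2-fold within ZT16, against 10.3% of all members. In exon GC content the ZT16 libraries also lay apart: the genes in the highest of 20 GC bins minus those in the lowest bin came to 0.318 in replicate 1 and -0.128 in replicate 2 (median log2 deviation from the mean of the libraries), against 0.182 and 0.122 at ZT12. Its part in the differences between the lists was not tested.

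**Figure D5:**
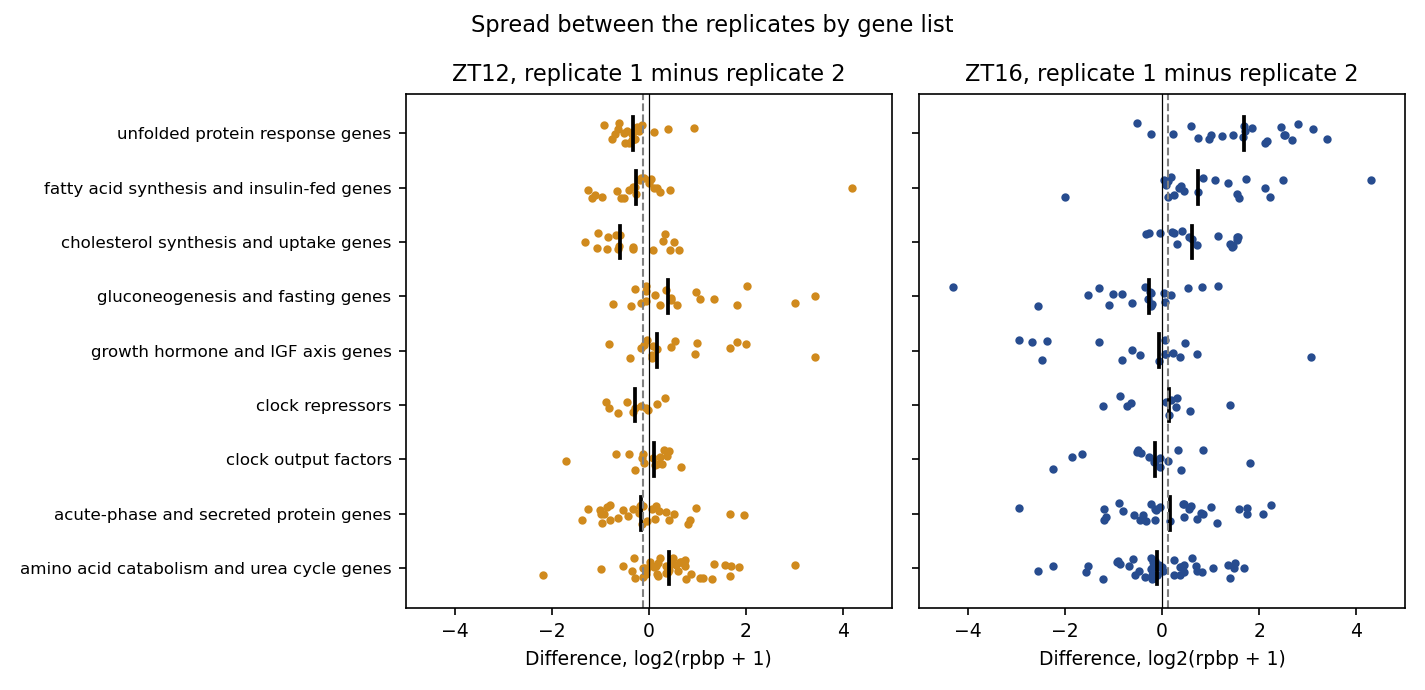
Difference between replicate 1 and replicate 2 on log2(rpbp + 1) for each tested member of 9 gene lists at ZT12 (left) and ZT16 (right), with the list median as a black bar and the median of all members as a dashed line. At ZT16 the unfolded protein response genes have a median of 1.69, while the amino acid, acute-phase and clock lists are centred between -0.15 and 0.16. These lists are still widely spread there. Differences over 2-fold are seen in 35.5% of acute-phase, 25.0% of amino acid, 25.0% of clock output and 18.2% of clock repressor members, against 10.3% of all members.

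Leaving out either ZT16 library leaves 1 library for that time point, assumed to vary like the others. Without replicate 1 of ZT16 54 genes passed (26 higher, 28 lower) and without replicate 2 73 (32 higher, 41 lower). Without replicate 1 of ZT12 1 gene passed and without replicate 2 of ZT12 5. Of the 15 genes, 12 remained called without replicate 1 of ZT16 and 14 without replicate 2, but 1 without replicate 1 of ZT12 and 3 without replicate 2 of ZT12.

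Small lists had few members. Of 7 immediate early genes, which respond to signals within minutes, none was higher at ZT16 and 2 (28.6%) were lower. Of all members 37.3% were lower with the deposited values and 19.0% with equal medians, where the list kept its 28.6%. The 2 were Zfp36 (47.2 and 32.2 rpbp, then 20.6 and 16.9 rpbp, -1.02) and Dusp1 (41.7 and 27.6 rpbp, then 16.6 and 21.5 rpbp, -0.81). Of 11 heat shock and cold-inducible genes, Bag3 was higher (0.51) and the cold-inducible Cirbp lower (-0.70), and 9 overlapped. This is 9.1% in each direction, against 6.51% higher and 37.3% lower of all members. With equal medians 18.2% were higher and 9.1% lower, against 16.8% and 19.0%. Only 9 of 78 cytosolic ribosomal protein genes and 5 of 48 ribosome biogenesis genes were members, with medians of -0.01 and -0.26. None of these genes passed the test.

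The first 4 hr of dark were also set against the first 4 hr of light, ZT0 to ZT4, with which they share no library. In 30 genes (0.576%) the difference from ZT12 to ZT16 was unlike that from ZT0 to ZT4 (limma, adjusted p under 0.05). Of these, 13 had a positive and 17 a negative difference of differences. They included 12 of the 15 called genes, but this contrast holds the same ZT16 minus ZT12 difference that called them. The overlap is therefore no independent check. The median difference of differences over all members was -0.255, and with equal medians 3 genes passed. Nr1d1 went from 6.3 and 11.9 rpbp at ZT0 to 37.6 and 30.6 rpbp at ZT4, in the opposite sense to its values at ZT12 and ZT16. Orm1 had 22.5 and 13.8 rpbp at ZT0 and 6.3 and 3.7 rpbp at ZT4. Saa1 and Saa2 had at most 0.5 rpbp in all 4 of these libraries.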

How the data were processed

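Nascent RNA from mouse liver was sequenced on a Genome Analyzer II. The authors mapped the reads to mm9 with TopHat (base calls by CASAVA 1.7, per the labels), kept uniquely mapped reads, and deposited a signal in reads per base pair over the exons of each symbol, not strand specific, scaled to 40000000 reads and rounded to 1 decimal. Read counts are not in this table, so depth gives no interval here, and the number of libraries (2 per time point) limits the precision. By the methods of the study, replicate 2 of ZT12 had the fewest mapped reads. Rhythm statistics (F24, phase and p) that the authors computed were not used. Of 49409 lines, 27919 held no symbol and were dropped.

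Values were analysed as log2(rpbp + 1) with limma 3.58.1 (R 4.3.3): 1 mean per time point over the 8 libraries sequenced in 1 lane (ZT0, ZT4, ZT12 and ZT16), two-sided, Benjamini-Hochberg adjustment over all 5211 members, threshold 0.05. No count model was used. The fit was tested on simulated data. The libraries of ZT8 and ZT20 were sequenced in 2 lanes and are given as values. The study speaks of independent samples, but no label ties a library to an animal, so that p-values measure the spread between these samples. The main fit did not pair samples by replicate number. Replicate differences of the 4 time points correlated between -0.13 and 0.20, which cannot show whether samples of one series were handled together.

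The members, the gene lists and the tests were chosen with earlier results of these data known. The text names up to 12 genes in each direction (called genes first, then the non-overlapping genes of lowest p, 1 symbol per locus), all tested clock genes, and the called or lowest-p genes of each list. Of these, 2 genes are not reported here. Other list members were named after their values were seen. Coordinates are mm9, counted from 1. GENCODE M1 (NCBIM37, the same build) matched 3630 members, and 2000 members overlap another member. Promoters are RefSeq sequences of GRCm38.p6, and Saa1 and Saa2 were aligned with Biopython. Alternatives were other sample sets, scalings, weights, pseudocounts, filters, a replicate block, a GC correction and each library left out.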

Additional observations from a re-analysis of the deposited data

Results flagged for a closer look

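In 30 genes the difference between ZT12 and ZT16 was unlike that between ZT0 and ZT4 (limma, adjusted p under 0.05), and 19 of the named genes were among them. Each value is (ZT16 minus ZT12) minus (ZT4 minus ZT0) on log2(rpbp + 1), so that it holds the difference by which most named genes were picked. Those with a positive value were Saa2 (3.81), Saa1 (3.10), Cxcl1 (2.55), Slc41a2 (2.21), AK050336 (2.61), Hpx (2.30), AK169958 (2.18), Adh6-ps1 (2.18) and Orm1 (3.91). In the 8 of these other than Orm1 the part from ZT0 to ZT4 lay between -0.67 and -0.16, and in Orm1 it was -1.67, beside 2.24 from ZT12 to ZT16.

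The negative values were those of DQ693081 (-5.47), Agxt2l1 (-3.94), Asl (-2.98), Map2k6 (-2.30), Nr1d1 (-4.18), Papss2 (-2.36), Upp2 (-5.75), Cpt1a (-2.17), Abcg5 (-3.66) and Igfbp4 (-2.01). The value of DQ693081, listed at 0 at ZT0 and ZT16, depends on the pseudocount and is no measured fold. In each of these 10 genes the mean was higher at ZT4 than at ZT0 and lower at ZT16 than at ZT12. Upp2 had 2.96 on the log2 scale from ZT0 to ZT4 and -2.80 from ZT12 to ZT16. With equal library medians 3 genes passed in place of 30. No group held enough libraries for a test of single outlying values.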

How the results depend on the processing

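The number of called genes moved widely with the processing. Against 15 called genes (9 higher, 6 lower), the 4 libraries of ZT12 and ZT16 alone gave 0 (0 and 0), also with equal medians (0, chosen after seeing the data, lowest adjusted p 0.18), all 12 libraries 29 (13 and 16), equal library medians 9 (7 and 2), array weights 7 (4 and 3), a mean-variance trend 3 (2 and 1), a pseudocount of 0.1 rpbp 6 (3 and 3), a limit of 3 rpbp 9 (6 and 3), a limit of 12 rpbp 21 (11 and 10), a mean over 6 rpbp 23 (12 and 11), no filter on low values 0 (0 and 0, with 1866 at an unadjusted p under 0.05), 1 symbol per locus 11 (7 and 4), and removal of the GC trend 11 (9 and 2). Leaving out 1 library of ZT12 or ZT16 gave 1 to 73 calls (0 to 32 higher, 1 to 41 lower), the lowest without replicate 1 of ZT12 and the highest without replicate 2 of ZT16. The median difference was -0.014 with equal medians, -0.012 without the GC trend and -0.084 with no filter. The causes were not tested.

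The replicate block gave 5 calls (3 higher and 2 lower), and 6 in place of 30 for the contrast with ZT0 to ZT4, where equal medians gave 3. The replicate differences of ZT12 and ZT16 correlated at -0.08, which cannot show whether samples of one series were handled together. A shared effect of each series was not tested.

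No called gene changed direction. Each lost its call in at least 3 of its alternatives, DQ693081 in 3 of 17, Cxcl1 and Agxt2l1 in 4, Saa2 and Slc41a2 in 5 and Saa1 in 6. Log2 differences of uncalled genes near 0 changed sign. With equal medians they were 0.12 for Per2, 0.15 for Cry1, 0.18 for Klf10, 0.05 for Gas5, 0.02 for Clec4f and 0.01 for Alas2. Without the GC trend they were 0.15 for Per2, 0.17 for Cry1, 0.18 for Klf10, 0.01 for Clec4f and 0.01 for Alas2, and Klf10 had 0.05 with a pseudocount of 0.1.

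With 1 library left out the ranges were -0.39 to 0.19 for Per2, -0.20 to 0.12 for Cry1, -1.58 to 0.27 for Alas1, -0.86 to 0.85 for Klf10, -1.32 to 0.13 for Rpl10a, -0.62 to 0.30 for Gas5, -0.91 to 0.06 for Cd5l and -0.43 to 0.03 for Alas2.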

Other observations

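Growth hormone and IGF axis genes (17 members of 23) had no call and a median log2 difference of 0.04 between ZT16 and ZT12. The list had 2 genes higher (Onecut1 and Igfals, 11.8%) and 5 lower (29.4%), against 6.51% and 37.3% of all members. With equal medians it had 5 higher (29.4%) and 2 lower (11.8%), against 16.8% and 19.0%. Onecut1, which encodes a liver transcription factor, had 3.4 and 3.5 rpbp at ZT12 and 10.3 and 57.1 rpbp at ZT16, so that both ZT16 values were higher but far apart. Igfbp4, an IGF binding protein gene, had 87.7 and 84.4 rpbp and then 43.2 and 36.6 rpbp (-1.09, adjusted p = 0.131). Of 35 cell cycle and growth control genes 6 were members, with a median of -0.49. At ZT16 4 of them were lower (66.7%, or 2 and 33.3% with equal medians), against 37.3% and 19.0% of all members. These 4 were Cebpb, Hnf4a, Cebpa and Rbl2, and Cebpb had 41.9 and 25.4 rpbp at ZT12 and 15.7 and 19.3 rpbp at ZT16.

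Fatty acid synthesis and insulin-fed genes (21 members of 35) had a median of -0.29, with 2 higher and 6 lower (28.6%, against 37.3% of all members). With equal medians 4 were higher and 4 lower (19.0% each), where all members had 16.8% and 19.0%. The 11 stellate cell and fibroblast markers summed to 24.1 and 24.9 rpbp at ZT12 and 22.1 and 21.5 rpbp at ZT16, the 8 cholangiocyte markers to 8.1 and 6.5 rpbp and then 9.0 and 5.6 rpbp, and the red cell markers found in the table to 13.7 and 11.8 rpbp and then 9.2 and 13.0 rpbp. Each of these 3 lists had 1 member, which did not pass the test. Of the nuclear non-coding RNAs listed, 1 was in the table, Gas5, with 19.4 and 22.1 rpbp at ZT12 and 25.7 and 13.1 rpbp at ZT16.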
